A study of Mus musculus with 6 samples.

Results

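The genes described here encode the respiratory chain and the ATP synthase of mitochondria, and they were read in mouse ovarian tumours after RU486 or placebo. Members were chosen by gene symbol: the symbol begins with Nduf, Uqcr or Atp5, or with Cox and a digit, or is Sdha, Sdhb, Sdhc, Sdhd, Cycs or Cyc1. No measured value enters this rule, but it was set with earlier results of these data known. The rule gave 105 of 21878 genes, read by 122 of 24903 probes with 1 gene symbol. By complex there were 36 genes of complex I (NADH dehydrogenase), 4 of complex II (succinate dehydrogenase), 9 of complex III (cytochrome bc1), 1 for cytochrome c, 20 of complex IV (cytochrome c oxidase) and 18 of complex V (ATP synthase), with 17 assembly factors beside them. No filter on low values was applied, so all 105 were tested. Of these, 2 (Ndufa11b and Atp5c1-ps) are annotated as pseudogenes, and they were left in the counts by complex but not in the counts by role, such as core and accessory subunits.

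Each of 6 single-colour Agilent arrays held RNA of an ovarian tumour, 3 from mice with a slow-release RU486 pellet for 24 h and 3 from mice with a placebo pellet for 24 h. RU486, or mifepristone, is an antagonist of both the progesterone and the glucocorticoid receptor. Mice of both groups had the genotype given as Pgrcre/+mPgrLsL/+ in the sample labels and as Pgrcre/+PgrBLsL/+ in the series design, so that the B form of the progesterone receptor is expressed where the Pgr gene drives Cre, and tumours were 0.5 to 1 cm across. No tumour without the allele was compared, age is not given, and the labels do not say that each array is a different mouse, so p-values measure the spread between these samples, which may be technical.

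The mitochondrial chain passes electrons from NADH through complex I, or from succinate through complex II, to coenzyme Q, complex III, cytochrome c and complex IV, and complex V uses the resulting proton gradient to make ATP. A few core subunits carry the flavins, iron-sulfur clusters, hemes or catalytic sites, while many small accessory subunits surround them. Mitochondrial DNA encodes part of the core of complexes I, III, IV and V, and the members here are encoded in the nucleus. In the ovary the same organelle also holds the first step of steroid synthesis.

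Values are scores that the authors centred and scaled for each probe over the 6 arrays, so a score of 0 is the probe's own mean and a score of 1 lies 1 SD above it. They hold no brightness and no fold change, genes cannot be ranked by level, and presence of the ovarian cell markers cannot be checked. The sources do not state the direction of the scores, and a higher one is read here as a stronger probe signal. The difference given for a gene is its mean RU486 score minus its mean placebo score, in SDs of a probe, and cannot pass 1.83 in size. Probes of one gene were averaged, so the difference of a gene is smaller where its probes disagree. In bulk tissue, fewer cells of a type and less RNA per cell cannot be told apart.

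Scores of most members were lower on the RU486 arrays, and no single member passed the test over all genes. The median difference of the 105 members was -0.765, against -0.0582 over all genes tested, and 82 members (78.1%) had a negative difference, against 51.6% of all genes. With the ordinary statistic of limma 0 members passed an adjusted p of 0.05, against 0.00457% of all genes, and 0 members passed with eBayes moderation. At an unadjusted p of 0.05 there were 13 lower members (12.4%), against 7.08% of all genes, and 3 higher members (2.86%), against 5.24%. The groups did not overlap in 22 lower members (21.0%), against 10.8% of all genes, and in 4 higher members (3.81%), against 11.2%.

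The excess of lower members at an unadjusted p of 0.05 depended on single arrays. The count of 13 dropped to 5 members (4.76%) without placebo array 2, against 5.52% of all genes in the same fit, and to 6 (5.71%) without placebo array 1, against 8.97%. Without placebo array 3 it was 6 (5.71%), against 5.17%, and without RU486 array 1 it was 7 (6.67%), against 4.59%. The excess stayed without RU486 array 3, with 15 (14.3%), against 5.29%, and without RU486 array 2, with 12 (11.4%), against 7.14%. In the fits without a placebo array the members' share was thus near or below that of all genes. Subtracting array medians gave 8 lower members (7.62%), against 6.5% of all genes, and the replicate number as a block gave 5 (4.76%), against 5.10%. Array weights gave 20 (19.0%), against 13.3% of all genes. Those weights were very uneven, from 0.342 for RU486 array 2 to 4.96 for placebo array 2. The count was 13 (12.4%) with eBayes moderation, against 6.75%, and 14 (13.3%) with the first probe of each gene, against 7.16%. With quantile normalization it was 10 (9.52%), against 7.32%. The median difference of the members was -0.326 without RU486 array 1, the lowest in size, against 0.137 over all genes in that fit. It was -1.17 without RU486 array 3, the highest in size, against -0.0153. The members' median was negative under each of these settings. The members' median minus that of all genes ran from -0.463 without RU486 array 1 to -1.15 without RU486 array 3. Over single arrays left out, 73 of the 105 members kept their sign in every fit, and 63 of these were negative.

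A single array held much of the low values. RU486 array 1 had the lowest of the 6 scores in 76 members (72.4%), against 27.2% of all genes, and placebo array 1 had the highest in 31 members (29.5%), against 8.8% of all genes. Mean scores of the 105 members were -1.16, 0.110 and 0.137 on RU486 arrays 1 to 3, against 0.104, 0.491 and 0.315 on placebo arrays 1 to 3. RU486 arrays 2 and 3 thus lay just above 0, placebo array 1 lay just below them, and the groups overlapped. With array 1 of both groups left out, a choice made after seeing these values, the median difference of the members was -0.381.

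**Figure D1:**
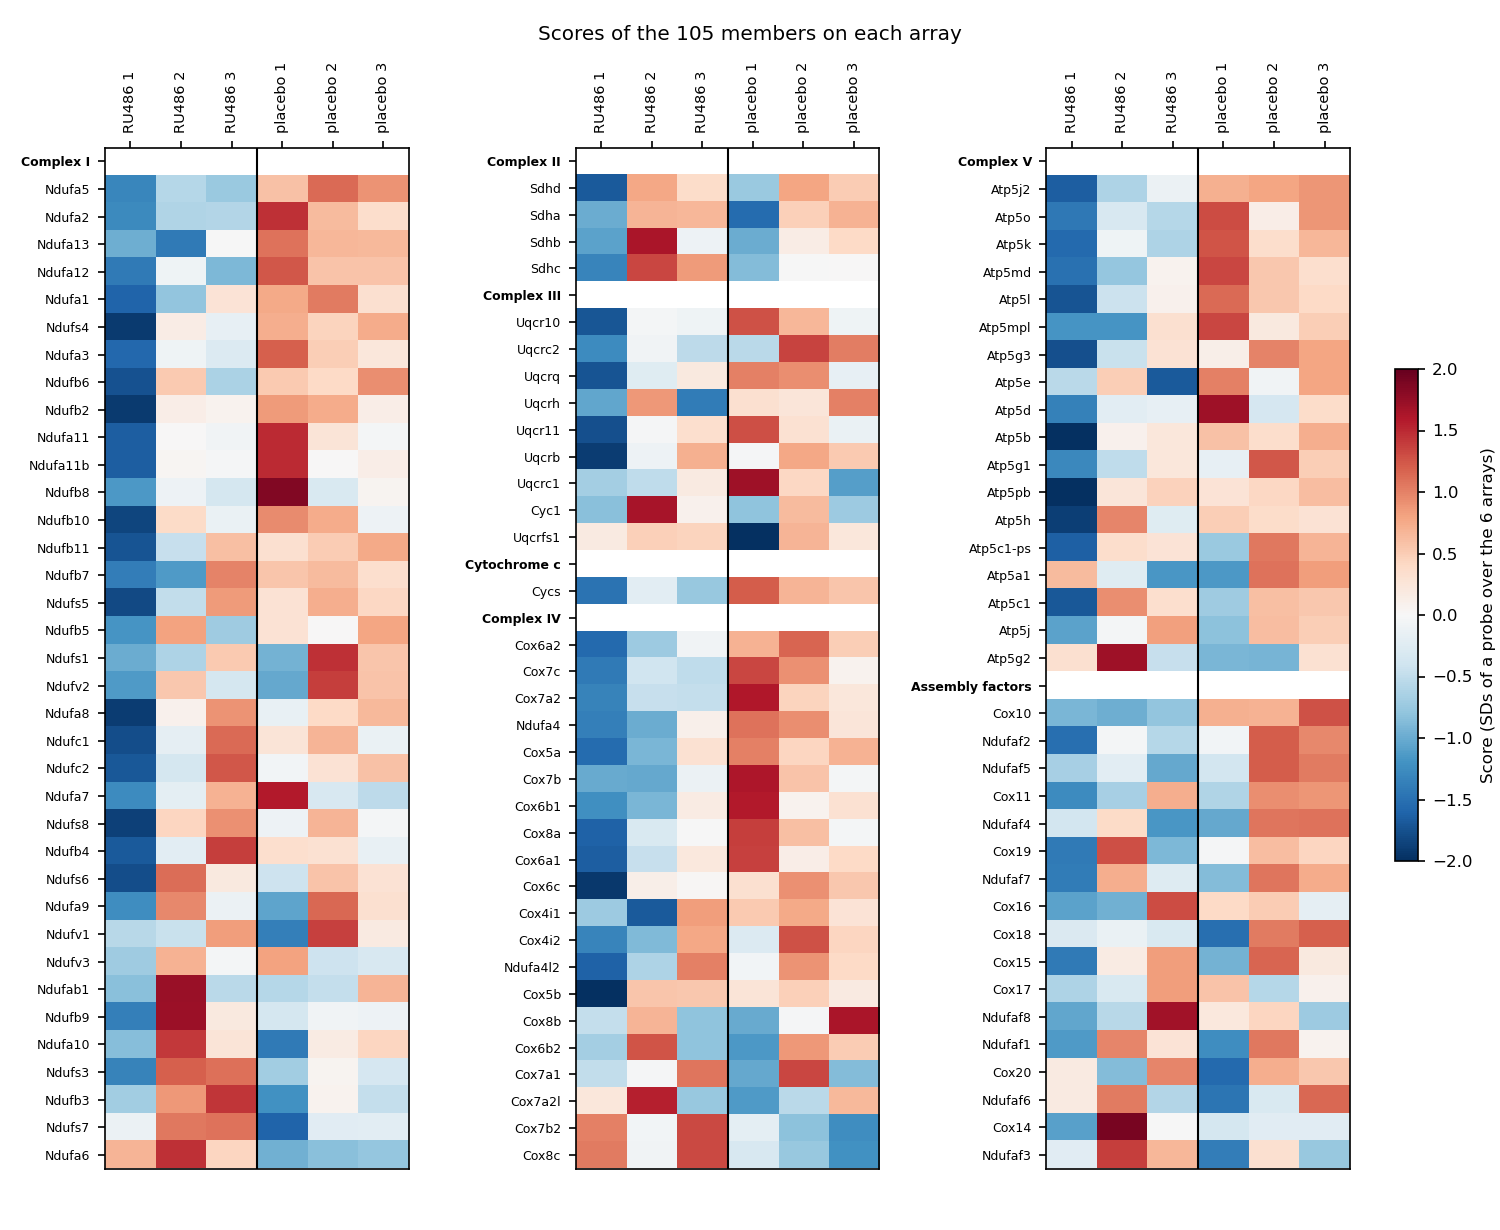
Score of each of the 105 members (rows, by complex, from the most negative difference at the top) on each array (columns), in SDs of that probe, with blue below and red above the probe's own mean. RU486 array 1, the first column, is the lowest of the 6 scores in 76 members, and the rows of complex II and of Ndufs1 and Ndufv1 are low on placebo array 1 as well.

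Endothelial markers shared the low scores on RU486 array 1, and most red cell markers were high on placebo array 1. The 10 endothelial markers had array means of -1.18, -0.606 and 0.541 on the RU486 arrays, against -0.263, 0.969 and 0.536 on the placebo arrays. Their median difference was -1.01, and RU486 array 1 was lowest in 9 of them (90%), against 27.2% of all genes. The 11 mitosis genes, with differences from -1.80 for Nusap1 to -1.59 for Top2a, had array means of -0.867, -0.585 and -1.12 on the RU486 arrays, against 0.634, 0.586 and 1.35 on the placebo arrays, with RU486 array 1 lowest in 0. Medians of the other marker lists were -0.895 for 9 neutrophil genes, -0.935 for 9 T and NK cell genes, -0.736 for 7 white fat genes and -0.317 for 9 macrophage genes. Red cell genes, 5 in all with a median of -1.02, had array means of -0.473, -0.509 and -0.188 on the RU486 arrays, against 1.51, -0.171 and -0.172 on the placebo arrays, with placebo array 1 apart from the other 5. Of the red cell genes 4 were highest on placebo array 1, and Epb42, highest on RU486 array 3, stood at 0.222. Medians were 0.239 for 8 granulosa cell genes, 0.641 for 7 steroidogenic cell genes, 0.149 for 11 epithelial genes and 0.570 for 7 brown fat genes. Granulosa cell genes had a mean of -0.919 on RU486 array 1 and -0.794 on placebo array 1, with RU486 array 1 lowest in 2 (25%). Means on RU486 array 1 were -0.539 for epithelial, -0.518 for neutrophil and 0.0281 for white fat genes, against -0.260 over all genes. That array was lowest in 27.3% of the epithelial, 33.3% of the neutrophil and 14.3% of the white fat genes. Scores do not tell which of these markers are near background, and the part of these cells in the members' scores was not tested.

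Between complexes, the median difference was most negative for complexes V and IV and positive for complex II. Medians were -0.676 for complex I, 0.272 for complex II, -0.966 for complex III, -1.12 for complex IV and -1.13 for complex V. Negative differences were found in 29 of 36 genes of complex I, 1 of 4 of complex II, 7 of 9 of complex III, 16 of 20 of complex IV and 17 of 18 of complex V. Of all genes tested 51.6% were negative. Array means of complex V were -0.468 ± 0.718 on RU486 arrays and 0.468 ± 0.108 on placebo arrays (SD, n = 3 each), and those of complex II were 0.0946 ± 1.23 on RU486 arrays and -0.0946 ± 0.818 on placebo arrays (SD, n = 3 each). The 3 RU486 means of complex V lay below the 3 placebo means, while in complexes I to IV the groups of means overlapped. Without RU486 array 1 the medians were -0.256 for complex I, 0.855 for complex II, -0.501 for complex III, -0.647 for complex IV and -0.740 for complex V. Without RU486 array 3 that of complex I was -1.18. These are descriptions of the members of each complex, and the differences between complexes were not tested.

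**Figure D2:**
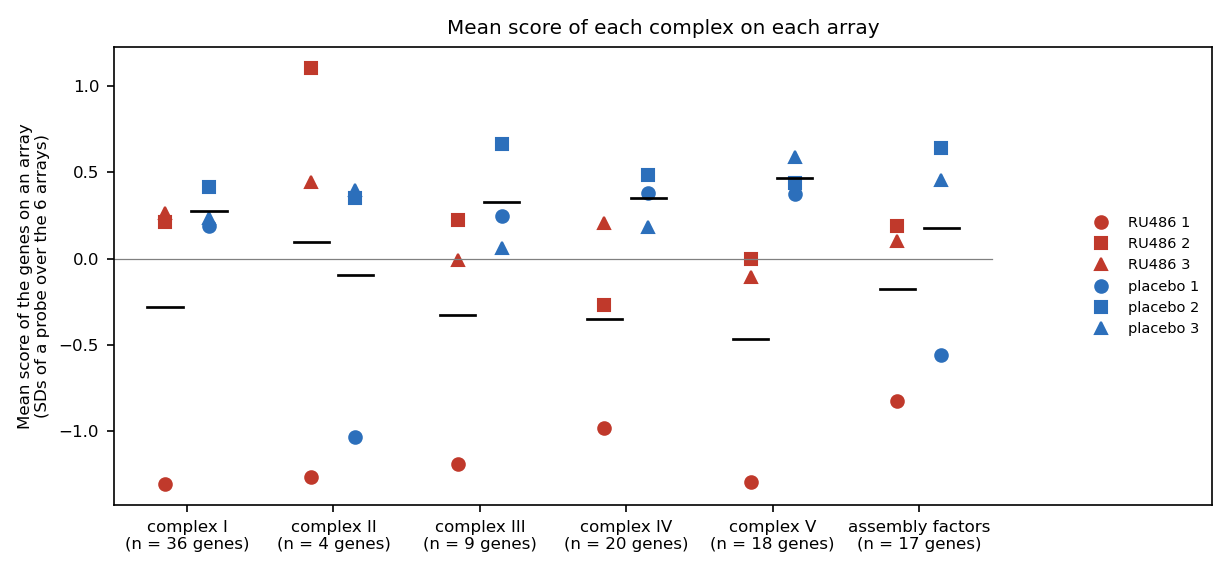
Mean score of the genes of each complex on each array (vertical axis, SDs of that probe), with RU486 arrays in red to the left of placebo arrays in blue, a symbol for each array number and a black line at the mean of each group. RU486 array 1 is the lowest point in every column, at -1.30 in complex V, and placebo array 1 is low in complex II, at -1.04, and in the assembly factors, at -0.560.

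**Figure D3:**
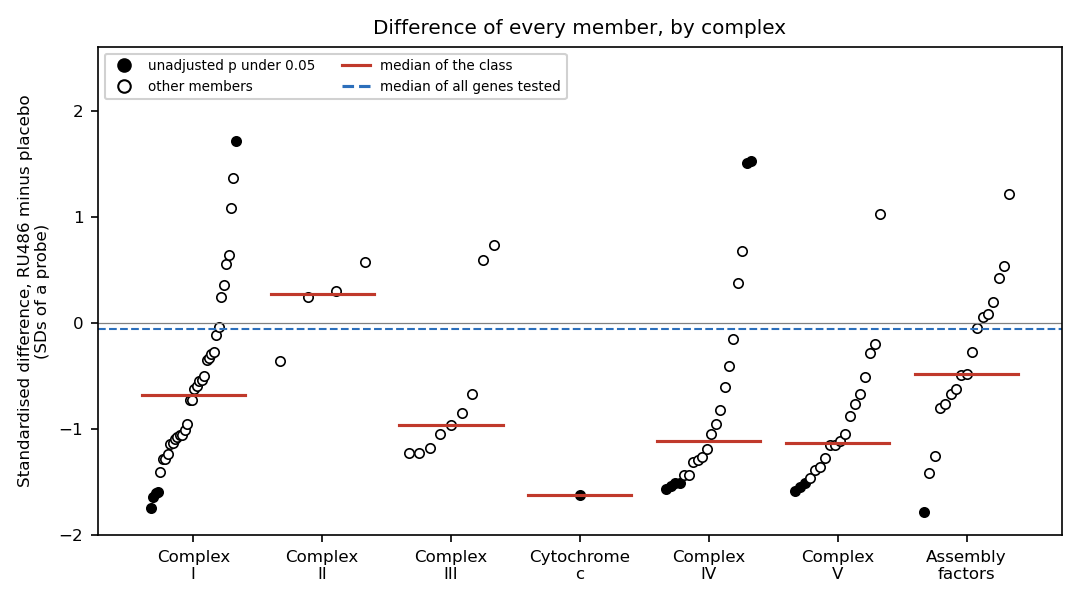
Standardised difference, RU486 minus placebo (vertical axis, SDs of a probe), of each member, ordered by size within its class, with filled points at an unadjusted p under 0.05, a red line at the median of the class and a dashed blue line at the median of all genes tested. Complex V has 1 member above 0 and complex II has 3 of 4, and the 3 filled points above 0 are Ndufa6, Cox8c and Cox7b2.

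Complex I takes electrons from NADH. Its most negative difference was that of Ndufa5, an accessory subunit, which scored -1.31, -0.573 and -0.736 on RU486 arrays 1 to 3, against 0.585, 1.13 and 0.899 on placebo arrays 1 to 3. The 3 RU486 scores lay below the 3 placebo scores, and the difference was -1.74 (SE 0.272, limma adjusted p = 0.247). Ndufa2, an accessory subunit of the NADH-binding arm, scored -1.27, -0.601 and -0.586 on the RU486 arrays, against 1.47, 0.640 and 0.351 on the placebo arrays. Its groups did not overlap, and its difference was -1.64 (SE 0.403, limma adjusted p = 0.352). Ndufa13, also known as GRIM-19, a subunit first described for a role in interferon and retinoid induced cell death, stood at -1.60 (SE 0.440, limma adjusted p = 0.390). Ndufa12, another accessory subunit, stood at -1.59 (SE 0.445, limma adjusted p = 0.390). In 3 further members, Ndufa1, Ndufa3 and Ndufs4, RU486 scores also lay below all placebo scores, with differences of -1.41, -1.28 and -1.28. Each had its lowest score on RU486 array 1. In complex I the groups did not overlap in 7 lower members (19.4%), against 10.8% of all genes, and 2 higher members (5.56%), against 11.2%.

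Ndufa6, an accessory subunit of the LYR protein family, went the other way. It scored 0.672, 1.47 and 0.431 on RU486 arrays 1 to 3, against -0.960, -0.833 and -0.775 on placebo arrays 1 to 3. All 3 placebo scores lay close together below 0, and the difference was 1.71 (SE 0.317, limma adjusted p = 0.278), with an unadjusted p of 0.00570. It was 1 of 6 complex I members that RU486 array 1 did not have at its lowest. Ndufs7, the core subunit with the last iron-sulfur cluster before coenzyme Q, scored -0.110, 1.06 and 1.09 on the RU486 arrays, against -1.60, -0.233 and -0.206 on the placebo arrays. Its groups did not overlap either, with a difference of 1.36 (SE 0.608, limma adjusted p = 0.431).

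Core and accessory subunits of complex I had different array patterns. Ndufs1, a core subunit with iron-sulfur clusters, scored -0.999, -0.614 and 0.526 on the RU486 arrays, against -0.939, 1.47 and 0.560 on the placebo arrays, and Ndufv1, the core subunit that binds NADH and flavin, scored -0.556, -0.451 and 0.830 on the RU486 arrays, against -1.37, 1.37 and 0.178 on the placebo arrays. Both were low on array 1 of either group and highest on placebo array 2, and their differences were -0.725 (SE 0.838) and -0.118 (SE 0.911). Over the 6 measured core subunits, which also include Ndufs3, Ndufs8 and Ndufv2, the median difference was -0.235, with array means of -1.0, 0.359 and 0.687 on the RU486 arrays, against -0.956, 0.789 and 0.122 on the placebo arrays. Over the 29 accessory subunits it was -0.957, with array means of -1.36, 0.186 and 0.186 on the RU486 arrays, against 0.379, 0.353 and 0.259 on the placebo arrays. Ndufv3, an accessory subunit, had a difference of -0.0428 from a pair of probes at -1.22 and 1.13.

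Complex II is the part of the chain that is also an enzyme of the TCA cycle, and all its subunits are nuclear. Sdha, the flavoprotein, scored -0.990, 0.687 and 0.664 on RU486 arrays 1 to 3, against -1.54, 0.482 and 0.700 on placebo arrays 1 to 3. Sdhb, the iron-sulfur subunit, scored -1.07, 1.63 and -0.105 on the RU486 arrays, against -0.997, 0.152 and 0.392 on the placebo arrays. Array 1 was the lowest array of either group for both genes, and their groups overlapped, with differences of 0.241 (SE 0.905) and 0.302 (SE 0.900). The membrane anchors Sdhc and Sdhd stood at 0.577 (SE 0.866) and -0.364 (SE 0.895), with overlapping groups. Array weights turned the median of complex II to -0.433, and leaving out RU486 array 2 or placebo array 1 turned it to -0.240 or -0.296.

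Complex III passes electrons from coenzyme Q to cytochrome c. Its 7 members without a redox centre all had negative differences, from -1.23 to -0.672, and both core members had positive ones. Uqcr10, a small accessory subunit, scored -1.71, -0.0448 and -0.0927 on the RU486 arrays, against 1.28, 0.660 and -0.0901 on the placebo arrays, with the RU486 array 3 and placebo array 3 scores nearly equal and a difference of -1.23 (SE 0.674). Uqcrc1, a subunit on the matrix side, was highest on placebo array 1 and lowest on placebo array 3, and its difference was -0.672 (SE 0.849). Uqcrfs1, the Rieske iron-sulfur protein, scored 0.184, 0.470 and 0.441 on the RU486 arrays, against -2.01, 0.684 and 0.229 on the placebo arrays. Placebo array 1 lay far below the other 5 arrays, and the difference was 0.730 (SE 0.837), or -0.0911 without that array. Cyc1, cytochrome c1, stood at 0.593 (SE 0.863), with its highest score on RU486 array 2, and at -0.0817 without it. Groups overlapped in all 9 genes.

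Over complexes I, II and III together, the 12 core redox subunits had a median difference of 0.272, and the 36 accessory subunits of complexes I and III had -0.990. Array means of the core were -0.978, 0.725 and 0.535 on RU486 arrays 1 to 3, against -1.06, 0.623 and 0.153 on placebo arrays 1 to 3, with array 1 lowest in both groups. That order was not particular to the core. Over all genes tested array 1 was also lowest in both groups, at -0.260 with RU486 and -0.304 with placebo. The assembly factors had it too, at -0.825 and -0.560. Array means of the accessory subunits were -1.38, 0.147 and 0.133 on RU486 arrays 1 to 3, against 0.444, 0.414 and 0.238 on placebo arrays 1 to 3, with placebo array 1 the highest. The split into core and accessory subunits was chosen after the values were seen, and the difference between the sets was not tested.

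Cycs encodes cytochrome c, the small carrier between complexes III and IV that also triggers apoptosis when it leaves mitochondria. It scored -1.47, -0.210 and -0.752 on RU486 arrays 1 to 3, against 1.20, 0.677 and 0.555 on placebo arrays 1 to 3. The groups did not overlap, and the difference was -1.62 (SE 0.417, limma adjusted p = 0.372).

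Complex IV reduces oxygen, and its catalytic core is encoded by mitochondrial DNA, so the members are the surrounding subunits and their tissue isoforms. Among the 12 forms found in most tissues 11 stood below 0 (91.7%), against 51.6% of all genes, and the median was -1.30. RU486 scores lay below all placebo scores in 6 (50%), against 10.8% of all genes. Cox7c scored -1.41, -0.403 and -0.503 on RU486 arrays 1 to 3, against 1.33, 0.912 and 0.0719 on placebo arrays 1 to 3. Its difference was -1.54 (SE 0.488, limma adjusted p = 0.390). Cox7a2, the form of subunit VIIa in most tissues, scored -1.33, -0.455 and -0.481 on the RU486 arrays, against 1.60, 0.449 and 0.219 on the placebo arrays, with the highest score on placebo array 1 and a difference of -1.51 (SE 0.513, limma adjusted p = 0.390). Ndufa4, once counted to complex I and now to complex IV, stood at -1.51 (SE 0.514, limma adjusted p = 0.390), and Cox5a, Cox7b and Cox6c, whose groups did not overlap either, stood at -1.43, -1.43 and -1.19. Cox6a1, Cox6b1 and Cox8a, the common forms of their subunits, stood at -1.27, -1.31 and -1.29, with groups that overlapped through RU486 array 3.

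The isoforms of narrower expression did not share 1 direction. Cox6a2, the heart and skeletal muscle form of subunit VIa, scored -1.55, -0.722 and -0.0746 on RU486 arrays 1 to 3, against 0.688, 1.16 and 0.497 on placebo arrays 1 to 3, without overlap and with a difference of -1.56 (SE 0.470, limma adjusted p = 0.390). Skeletal muscle markers, 18 genes, had array means of -0.0358, -0.246 and -0.278 on the RU486 arrays, against 0.314, 0.0428 and 0.202 on the placebo arrays and a median of -0.479; the part of muscle in the Cox6a2 score was not tested. The other muscle forms Cox7a1 and Cox8b stood at 0.380 (SE 0.893) and -0.404 (SE 0.890), with overlapping groups. Cox4i2, the form of subunit IV that low oxygen induces, scored -1.33, -0.875 and 0.771 on the RU486 arrays, against -0.273, 1.27 and 0.433 on the placebo arrays, and its common partner Cox4i1 scored -0.728, -1.68 and 0.844 on the RU486 arrays, against 0.530, 0.755 and 0.281 on the placebo arrays. Both were lower on RU486 arrays 1 and 2 and high on RU486 array 3, with differences of -0.954 (SE 0.778) and -1.04 (SE 0.749). Ndufa4l2, the hypoxia-induced relative of Ndufa4, was likewise highest of the RU486 arrays on array 3 and had a difference of -0.818 (SE 0.816).

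Forms known from testis were the highest members of complex IV. Cox8c scored 1.04, -0.0737 and 1.33 on RU486 arrays 1 to 3, against -0.322, -0.754 and -1.22 on placebo arrays 1 to 3, and Cox7b2 scored 1.00, -0.0558 and 1.32 on the RU486 arrays, against -0.193, -0.823 and -1.24 on the placebo arrays. The scores of these genes were nearly the same on every array, and the groups did not overlap in either, with differences of 1.53 (SE 0.499, limma adjusted p = 0.390) and 1.51 (SE 0.515, limma adjusted p = 0.390). Cox6b2, another testis form, stood at -0.155 (SE 0.910). Of 6 male germ cell markers 5 had negative differences, with a median of -0.986, and Acrv1, a sperm acrosome gene, stood at 1.23. Casq1, a calcium store protein of skeletal muscle, had like scores. It scored 1.02, -0.0906 and 1.35 on the RU486 arrays, against -0.327, -0.745 and -1.21 on the placebo arrays, and stood at 1.52. The muscle myosin Myh2 stood at 1.39, with overlapping groups. Both were picked from 18 skeletal muscle markers, of which 13 had negative differences, with Pvalb at -1.72 and Actn3 at -1.61. Whether the probes of any of these testis and muscle genes were above background is unknown. Cox7a2l, which joins complexes III and IV into supercomplexes, stood at 0.677 (SE 0.848), with overlapping groups, and at 0.0715 without RU486 array 2.

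In complex V 5 small subunits of the membrane part, counted apart from subunit c, had differences within a narrow range. They are subunit f (Atp5j2), subunit e (Atp5k), subunit g (Atp5l), DAPIT (Atp5md) and the proteolipid Atp5mpl, which lie where ATP synthases pair into dimers. Their differences ran from -1.58 to -1.36. RU486 array 1 was lowest in all 5, against 27.2% of all genes, and placebo array 1 was highest in 4 (80%), against 8.8%. Atp5j2 scored -1.65, -0.610 and -0.118 on RU486 arrays 1 to 3, against 0.708, 0.782 and 0.885 on placebo arrays 1 to 3, and Atp5k scored -1.56, -0.0884 and -0.620 on the RU486 arrays, against 1.26, 0.348 and 0.659 on the placebo arrays. Neither gene's groups overlapped, and the differences were -1.58 (SE 0.454, limma adjusted p = 0.390) and -1.51 (SE 0.506, limma adjusted p = 0.390). The pair of Atp5k probes stood at -1.55 and -1.47, and the pair of Atp5l probes at -1.38 and -1.39.

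The head and stalks of the synthase had smaller differences, all 9 negative, with a median of -0.875. Atp5o, the subunit OSCP that ties the outer stalk to the head, scored -1.44, -0.320 and -0.569 on the RU486 arrays, against 1.31, 0.135 and 0.879 on the placebo arrays, without overlap, and stood at -1.55 (SE 0.482, limma adjusted p = 0.390). Atp5b, the catalytic beta subunit, scored -1.98, 0.0913 and 0.227 on the RU486 arrays, against 0.587, 0.349 and 0.731 on the placebo arrays. Its groups did not overlap, but RU486 arrays 2 and 3 lay close below the placebo arrays, and the difference was -1.11 (SE 0.724), or -0.396 without RU486 array 1. Atp5a1, the alpha subunit, scored 0.630, -0.236 and -1.17 on the RU486 arrays, against -1.15, 1.09 and 0.832 on the placebo arrays, an order unlike that of Atp5b although both build the same ring, and stood at -0.515 (SE 0.876). Atp5c1, the gamma subunit of the rotor, stood at -0.286 (SE 0.902) and at 0.490 without RU486 array 1. Atp5j, a stalk subunit, stood at -0.195 from a pair of probes at -1.07 and 0.684.

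Atp5g1, Atp5g2 and Atp5g3 encode the same mature protein, subunit c of the rotor ring. Atp5g1 and Atp5g3 stood at -1.05 (SE 0.597) and -1.28 (SE 0.653). Atp5g2 scored 0.317, 1.69 and -0.467 on RU486 arrays 1 to 3, against -0.917, -0.937 and 0.311 on placebo arrays 1 to 3, and stood at 1.03 (SE 0.754), the 1 positive difference in complex V. Groups overlapped in all 3 genes.

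**Figure D4:**
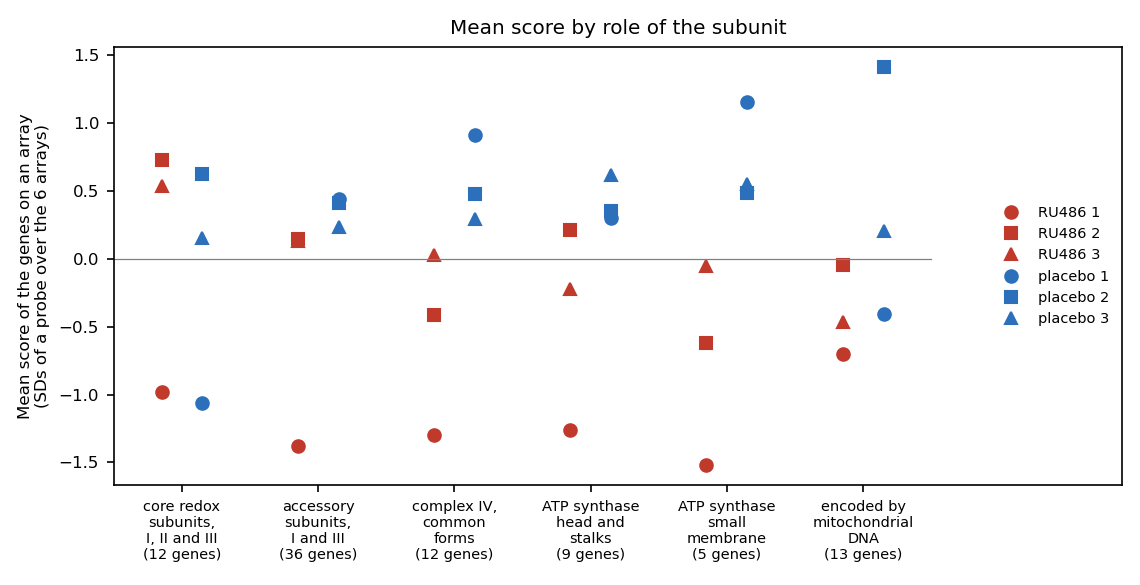
Mean score on each array (vertical axis, SDs of that probe) of subunits grouped by role, with RU486 arrays in red to the left of placebo arrays in blue and a symbol for each array number. Placebo array 1 is the lowest point for the core redox subunits, at -1.06, and the highest for the common forms of complex IV, at 0.913, and for the small membrane subunits of the ATP synthase, at 1.15, while placebo array 2 is the highest for genes of mitochondrial DNA, at 1.41.

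Assembly factors build the complexes and insert their metals and hemes. Cox10, which makes the farnesylated heme on the way to heme A of complex IV, had the smallest unadjusted p of all members. It scored -0.909, -0.983 and -0.781 on RU486 arrays 1 to 3, against 0.715, 0.690 and 1.27 on placebo arrays 1 to 3. Scores within each group were close and the groups lay far apart, with a difference of -1.78 (SE 0.197, limma adjusted p = 0.198) and an unadjusted p of 0.000835. Ndufaf3, a factor of complex I, had the highest difference in this class, 1.22 (SE 0.681), with overlapping groups. Cox17, a copper carrier, and Cox16 stood at -0.0508 and -0.488, each from a pair of probes of opposite sign. Over the 17 factors the median was -0.487, with 11 negative (64.7%), against 51.6% of all genes. Over 40 factors with other symbols it was -0.00983, with 20 negative (50%) and 2 lower at an unadjusted p of 0.05 (5%), against 7.08%. Those 2 were Higd1a, a mitochondrial protein that low oxygen induces, at -1.79 (SE 0.0652, limma adjusted p = 0.0522), and the complex V factor Atpaf2 at -1.63 (SE 0.412, limma adjusted p = 0.368).

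Of the genes around the chain, the 13 protein genes of mitochondrial DNA all had negative differences, against 51.6% of all genes, with a median of -0.875. At an unadjusted p of 0.05 there were 0, against 7.08% of all genes lower and 5.24% higher. Their array means were -0.702, -0.0475 and -0.469 on RU486 arrays 1 to 3, against -0.404, 1.41 and 0.209 on placebo arrays 1 to 3, so that placebo array 2 stood apart from the other 5 arrays. ND3 and ND4L, complex I subunits, had the smallest p, at -1.44 (SE 0.562) and -1.36 (SE 0.608). TCA cycle genes (18) had a median of -0.241. The unadjusted p was under 0.05 for 1 gene below 0 (5.56%), against 7.08% of all genes, and 0 above 0, against 5.24%. The isocitrate and oxoglutarate dehydrogenase genes Idh2 and Ogdh stood at -1.48 and -1.34. Genes of coenzyme Q synthesis and electron entry (20) had a median of -0.246. At an unadjusted p of 0.05 there was 1 lower (5%), against 7.08% of all genes, the glycerol phosphate dehydrogenase gene Gpd2 at -1.60. There was 1 higher (5%), against 5.24%, Coq8a at 1.61.

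Mitochondrial ribosomal protein genes, 78 by symbol, had a median of -0.329, with RU486 array 1 lowest in 37. Cytosolic ribosomal protein genes, also 78, had a median of -0.399 and array means of 0.906, -0.268 and -1.20 on the RU486 arrays, against 0.568, -0.379 and 0.372 on the placebo arrays. RU486 array 1 was lowest in 0 of these and had their highest mean. The difference of either ribosomal list from the chain was not tested.

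Transcription of chain genes is known to depend on the factors NRF1 and GABPA and on coactivators of the PGC-1 family. A list of 21 regulators of mitochondrial biogenesis holds these and others, such as nuclear receptors, sirtuins and transcription factors of mitochondrial DNA. Over this list the median difference was -0.483. An unadjusted p under 0.05 was found for 0 above 0, against 5.24% of all genes, and for 2 below 0 (9.52%), against 7.08%. Those were Ppara, a nuclear receptor of fatty acid use, at -1.79 (SE 0.187, limma adjusted p = 0.182), and the PGC-1 relative Pprc1 at -1.67 (SE 0.366, limma adjusted p = 0.307). Nrf1 scored -1.04, 0.296 and -0.846 on RU486 arrays 1 to 3, against 0.378, 0.482 and 0.734 on placebo arrays 1 to 3, with RU486 array 2 close below placebo array 1 and a difference of -1.06 (SE 0.431). Ppargc1a, the PGC-1 alpha gene, stood at -1.30 (SE 0.643) and Gabpa at -0.100 (SE 0.911), with overlapping groups.

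The 250 bases before the annotated start were read for 84 members from RefSeq promoter windows of mouse build GRCm38.p6. The NRF1 core, written GCGCA, then any base, then GCGC, and searched on both strands like the other motifs, was present in 13 of 84 members (15.5%), against 5.30% of 17492 protein-coding windows. The ETS core CCGGAAG that GABPA binds was present in 16 (19.0%), against 9.13%, and the cAMP response element TGACGTCA in 5 (5.95%), against 2.01%. Of the 13 members with the NRF1 core 11 had negative and 2 had positive differences, with a median of -0.761, and the 71 without it had a median of -0.801. With the ETS core the median was -0.990, against -0.701 in the 68 without it, and with the cAMP response element it was -1.14, against -0.761 in the 79 without it. Below are the windows of the most negative member, Cox10 (chr11:64079473-64079722, minus strand), of Atp5k (chr5:108434400-108434649, minus strand), of Cycs (chr6:50566570-50566819, minus strand) and of Atp5g2 (chr15:102671048-102671297, minus strand), which stood at 1.03. Capitals mark the ETS core in Cox10, the NRF1 core in Atp5k and Atp5g2 and the cAMP response element in Cycs. They are matches of letters, and binding at them was not tested.
Cox10: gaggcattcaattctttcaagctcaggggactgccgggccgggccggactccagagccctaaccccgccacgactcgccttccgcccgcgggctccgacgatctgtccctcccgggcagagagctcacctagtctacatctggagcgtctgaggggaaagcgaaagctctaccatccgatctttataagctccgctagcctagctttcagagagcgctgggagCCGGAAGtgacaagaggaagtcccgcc
Atp5k: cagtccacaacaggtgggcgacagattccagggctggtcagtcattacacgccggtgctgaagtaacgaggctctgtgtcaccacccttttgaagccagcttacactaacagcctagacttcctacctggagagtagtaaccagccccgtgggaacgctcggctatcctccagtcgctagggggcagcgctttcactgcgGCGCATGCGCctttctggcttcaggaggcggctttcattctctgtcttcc
Cycs: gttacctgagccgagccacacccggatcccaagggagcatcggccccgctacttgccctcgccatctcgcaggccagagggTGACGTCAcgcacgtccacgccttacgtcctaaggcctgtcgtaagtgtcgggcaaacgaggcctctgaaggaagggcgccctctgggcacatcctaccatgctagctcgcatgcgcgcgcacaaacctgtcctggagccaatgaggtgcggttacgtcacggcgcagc
Atp5g2: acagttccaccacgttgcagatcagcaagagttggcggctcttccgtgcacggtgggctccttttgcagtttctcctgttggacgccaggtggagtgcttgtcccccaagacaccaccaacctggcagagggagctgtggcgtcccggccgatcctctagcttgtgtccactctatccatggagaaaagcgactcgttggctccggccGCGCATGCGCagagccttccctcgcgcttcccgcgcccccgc
The NRF1 core thus stood 50 bases before the start of Atp5k, which was lower on RU486 arrays. It also stood 42 bases before the start of Atp5g2, whose difference was 1.03 (SE 0.754) with overlapping groups.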

How the data were processed

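Single-colour arrays of tumour RNA, 3 with RU486 and 3 with placebo, were analysed from the deposited value table, and groups and replicate numbers came from sample titles. Each of the 37932 probes in it holds scores that the authors centred to a mean of 0 and scaled to unit SD across arrays, as the values show. The only tool in the submitters' processing notes is Partek. For background correction, normalization, probe filter and the scale before centring, the method was not given in the sources used here. Signal over background is unknown, and the number of arrays limits the precision.

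GEO's platform annotation gave 24903 probes a single gene symbol and none more than 1; the other 13029 are unnamed here. The Entrez IDs of all 105 members matched the RefSeq table of GRCm38.p6, with 0 symbols changed. Probe scores were averaged per gene, and 21878 genes were fitted with limma 3.58.1 in R 4.3.3 (ordinary statistic, 4 residual degrees of freedom, two-sided, Benjamini-Hochberg over all genes, threshold 0.05). The script was tested on simulated data. A filter on dim probes could not be applied to scaled scores. Members and gene lists were chosen with earlier results of these data known. Named members are up to 4 of smallest unadjusted p under 0.05 per direction and complex (otherwise the 1 of smallest p), a fixed panel of catalytic subunits and isoforms, and the 4 members with probes of opposite sign; each pathway list gives its 2 genes of smallest p. Other genes named, such as those with groups that do not overlap, were chosen after their values were seen. Alternatives were each array left out, eBayes moderation, array medians subtracted, quantile normalization, the first probe of each gene, array weights and the replicate number as a block.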

Additional observations from a re-analysis of the deposited data

How the results depend on the processing

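Under every alternative run 0 members passed an adjusted p of 0.05. The median difference of all members stayed negative, from -0.326 to -1.17, while that of all genes ran from -0.364 to 0.204. Medians of complexes I, III, IV and V stayed negative too. Left out in turn, single arrays gave 5 to 15 lower and 1 to 4 higher members of 105 at an unadjusted p of 0.05, where 4.59% to 8.97% of all genes were lower and 1.66% to 10.5% higher. They gave 22 to 42 lower and 4 to 11 higher members with groups that did not overlap, which 12.4% to 22.3% of all genes were as lower and 14.3% to 20.4% as higher ones. The lower count was 8 with array medians subtracted, against 6.5% of all genes, and 20 with array weights, against 13.3%. Higher members without overlap were 2 with array medians subtracted, against 7.02% of all genes, and 2 with quantile normalization, against 6.46%. Subtracting array medians moved the median of all genes to 0.129. Without array 1 of both groups, chosen after seeing the data, medians were -0.167 for complex I, -0.347 for complex III and -0.611 for complex IV. Over single arrays left out the median of complex IV ran from -1.59 to -0.647. The replicate numbers are not known to pair the arrays: deviations of same-numbered arrays correlated at 0.254, 0.0539 and -0.272, and with the replicate block the lower count was 5, against 5.10% of all genes.

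Of 49 named members 33 kept their direction in every alternative. With single arrays left out, differences ran from -0.823 to 0.490 for Atp5c1, -0.653 to 0.290 for Atp5j, -0.484 to 0.245 for Cox17, -0.820 to 0.238 for Cox6b2, -0.0640 to 1.14 for Cox7a1, -1.01 to 0.311 for Cox8b, -0.0817 to 1.16 for Cyc1, -0.834 to 0.538 for Ndufv1, -0.398 to 0.346 for Ndufv3, -0.471 to 0.796 for Sdha, -0.438 to 0.915 for Sdhb, -0.841 to 0.388 for Sdhd, -1.39 to 0.00691 for Uqcrc1 and -0.0911 to 1.25 for Uqcrfs1. With array weights, signs turned for Cox17 (0.431), Ndufv3 (0.0613), Cox7a1 (-0.606), Cyc1 (-0.467), Sdha (-0.444), Sdhb (-0.422), Sdhc (-0.00154) and Uqcrfs1 (-0.0898). With array medians subtracted they turned for Cox17 (0.137), Cox6b2 (0.0326), Ndufv1 (0.0693) and Ndufv3 (0.145), with quantile normalization for Cox17 (0.176), and with the first probe for Cox17 (0.616) and Cox16 (0.0910). The cause was not tested.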

Other observations

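Among the 13 protein genes of mitochondrial DNA, 12 had their highest score on placebo array 2 and ND6 did not. ND6, the only one of them on the light strand, scored 0.954, -0.103 and -0.965 on RU486 arrays 1 to 3, against 1.12, -1.34 and 0.332 on placebo arrays 1 to 3. Its lowest score lay on placebo array 2, where ND4L was at 1.83 and CYTB at 1.83.

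Probes of 1 gene disagreed in 4 of the 15 members with several probes. For Cox17 they stood at -0.717 and 0.616, and for Cox16 at -1.07 and 0.0910.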
